A study of Mus musculus with 8 samples.

Results

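MOF, the histone acetyltransferase encoded by Kat8, works in a pair of complexes that do not share their other subunits. The genes described here are the 10 listed subunits of these complexes, found by symbol among the 23432 genes counted in each library. Kat8 is the catalytic subunit of both. Kansl1, Kansl2, Kansl3, Wdr5, Hcfc1, Mcrs1 and Phf20 belong to the NSL complex, and Msl1 and Msl2 to the MSL complex. As background, MSL acetylates histone H4 at lysine 16 (H4K16ac), a mark that loosens the packing of nucleosomes and is found over active genes. NSL acetylates H4 and proteins other than histones and sits at promoters of widely expressed genes. The question here is how the RNA of these subunits stood after deletion of Mof or of Kansl1 in skin epithelium.

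Polyadenylated RNA was sequenced from 4 groups of 2 libraries, 8 in all. MOF cKO mice are Mof fl/fl and Kansl1 cKO mice are Kansl1 fl/fl, both with Krt14-Cre, which acts in epithelial cells of the skin, so dermal cells keep the gene. Controls were littermates without homozygous deletion, wildtype or heterozygous, and the labels do not say which of these a control library came from. All animals were of a mixed C57Bl/6J and CD-1 background. At E16.5, cells positive for Krt14-H2BGFP, a green histone marker driven by the Krt14 promoter that controls and MOF cKO embryos both carried, were sorted by FACS from back skin. At P0.5, RNA came from whole epidermal sheets of control and Kansl1 cKO pups separated with Dispase, with no sort. The labels do not say that the libraries of a group came from separate litters, so p-values measure the spread between these libraries.

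Counts on genes ran from 9108709 to 27561688 per library. The 9 epithelial markers were present in every library, with a summed level between 36794 and 46174 CPM (counts scaled to library size) at E16.5 and between 56423 and 87149 CPM at P0.5. In MOF cKO 3 of the 9 were called, beside 19.6% of all genes. Krt1 (log2 fold change 1.67) and Krt10 (1.12), keratins of the suprabasal layers, were higher, and Krt15 (-1.26), a basal keratin, was lower. In Kansl1 cKO 0 of the 9 were called by edgeR, beside 0% of all genes. At an unadjusted p under 0.05 there was 1, beside 15.7% of all genes. The 11 leukocyte markers summed to 19.5 and 45.2 CPM in E16.5 control and to 104 and 134 CPM in MOF cKO. There 7 of 11 were called higher, beside 10% of all genes, and the median log2 fold change of the 11 was 5.19. Cd68 alone gave 18.1 and 41.7 CPM of the E16.5 control sums and was not called (log2 fold change 0.33, adjusted p = 0.594, edgeR). Ptprc, which marks leukocytes, went from 1 and 10 counts at E16.5 without the deletion to 36 and 47 with it. At P0.5 the leukocyte list summed to 201 and 236 CPM in control and to 296 and 324 CPM in Kansl1 cKO. The 5 melanocyte markers summed to 425 and 464 CPM against 898 and 1011 CPM. Of either list 0 were called (edgeR), beside 0% of all genes. At an unadjusted p under 0.05 there were 4 of 11 and 5 of 5 markers, beside 15.7% of all genes. The 7 fibroblast markers summed to 917 and 1552 CPM in E16.5 control and 1541 and 2150 CPM in MOF cKO (median on the log2 scale 1.03). At P0.5 they summed to 1748 and 1092 CPM in control and 926 and 739 CPM in Kansl1 cKO, with a median of -1.76. Of the 7, 0 were called in either knockout (edgeR), beside 19.6% of all genes in MOF cKO and 0% in Kansl1 cKO. An unadjusted p under 0.05 (edgeR) was found for 7 in MOF cKO and 5 in Kansl1 cKO, beside 48.9% and 15.7% of all genes. The directions were mixed: 6 were higher and 1, Dcn, lower (-0.30) in MOF cKO. In Kansl1 cKO 6 were lower and Dcn was higher (0.52), without being among the 5. Dcn was also the largest single part of the sum in both E16.5 control libraries, P0.5 control replicate 2 and both Kansl1 cKO libraries. The 4 endothelial markers summed to 5.87 and 6.64 CPM in E16.5 control, 10.2 and 20.9 CPM in MOF cKO, and at most 6.65 CPM at P0.5. In MOF cKO all 4 were higher (median on the log2 scale 1.19). Of these 1 was called, Pecam1 (1.74, adjusted p = 0.00892, edgeR), beside 10% of all genes called higher. In Kansl1 cKO 0 of the 3 tested were called, beside 0% of all genes. The part of these cells, or of the balance of epidermal layers, in the results below was not tested. Sex was not matched: Xist was at 1518 CPM in E16.5 control replicate 1 and at most 12.0 CPM in the other E16.5 libraries, and at 1.23 CPM in P0.5 control replicate 2 and at least 371 CPM in the other P0.5 libraries.

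The Kansl1 allele loses its exon 3 of 14 on Cre recombination, and this exon and the next are printed because they show what a count of the whole gene can and cannot see. In GENCODE M21, an annotation of the mm10 build that the files use, exon 3 of the 14-exon transcript lies on the minus strand at chr11:104378685-104378826 and exon 4 at chr11:104368680-104368778. Capitals in exon 4 mark the stop codons that come into frame when exon 3 is missing.
Kansl1 exon 3: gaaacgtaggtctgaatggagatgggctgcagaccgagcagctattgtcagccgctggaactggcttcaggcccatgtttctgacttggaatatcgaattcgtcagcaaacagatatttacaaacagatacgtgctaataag
Kansl1 exon 4: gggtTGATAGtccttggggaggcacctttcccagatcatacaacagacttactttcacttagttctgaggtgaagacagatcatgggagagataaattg
Exon 3 has 142 bases, which is 1 more than a multiple of 3, so joining exon 2 to exon 4 shifts the reading frame. The shifted frame meets TGA at base 5 of exon 4 with TAG directly after it, and 431 of 1036 codons precede that stop. Exon 3 holds only 2.07% of the exon bases of the gene, and 4 of its 6 annotated transcripts contain it. A count over the whole gene therefore includes transcripts without exon 3. The exons of Mof that Cre removes are not given in the sources used here.

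The start regions of the 10 genes differed in base composition, and most were rich in GC. Over the 300 bases around each RefSeq start (GRCm38.p6, 250 before to 50 after), the members had a median GC content of 63.2% and a median of 25 CpG, against 52.7% and 7 in all 27025 promoters. Kat8 had the lowest GC content (53.0%) and the fewest CpG (12), and Msl1 the highest GC content (79.3%). The GC box GGGCGG, which Sp1 family factors bind, was found on either strand in 9 of 10 members and in 35.9% of all promoters. The ETS core CCGGAA was found in 4 of 10 and in 15.2% of all. The letters GTTGCC (part of the X-box that RFX factors bind) and TATAAA were in 0 of 10, against 12.7% and 14.2% of all. The 250 bases before the start are shown for Kat8, the gene deleted in MOF cKO, and for Kansl2, the 1 member called in that knockout, with GC boxes and ETS cores in capitals. The Kat8 window lies on the plus strand at chr7:127912267-127912516 and the Kansl2 window on the minus strand at chr15:98534270-98534519.
Kat8 promoter: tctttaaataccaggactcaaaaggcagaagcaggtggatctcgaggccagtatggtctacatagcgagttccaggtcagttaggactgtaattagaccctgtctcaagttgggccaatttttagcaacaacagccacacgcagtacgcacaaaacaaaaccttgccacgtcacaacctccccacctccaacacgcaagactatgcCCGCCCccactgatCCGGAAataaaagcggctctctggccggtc
Kansl2 promoter: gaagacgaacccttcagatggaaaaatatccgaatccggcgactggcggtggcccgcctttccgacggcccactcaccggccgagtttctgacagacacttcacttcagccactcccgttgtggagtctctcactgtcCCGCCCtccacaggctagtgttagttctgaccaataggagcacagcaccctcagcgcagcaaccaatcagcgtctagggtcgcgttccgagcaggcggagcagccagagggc
The Kat8 window holds 1 GC box and 1 ETS core next to each other close to the start. The Kansl2 window holds 1 GC box and no ETS core. These matches are a description of letters, not of bound sites.

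Kat8 itself showed no detected change in its RNA in either knockout. Kat8 lies on the plus strand of chromosome 7 from 127912516 to 127925837. It was at 14.4 and 14.7 CPM in E16.5 control and at 12.4 and 13.9 CPM in MOF cKO, from 443, 408, 248 and 329 counts. Both MOF cKO libraries lay below both controls, but the log2 fold change of -0.14 (standard error 0.179, 95% interval -0.56 to 0.28) was smaller than its standard error (adjusted p = 0.554, edgeR's quasi-likelihood test). With library size alone as the scaling it was -0.45 (adjusted p = 0.0821, edgeR), where the median of all genes was -0.32. It ran from -0.23 to -0.07 when 1 library was left out. The libraries labelled MOF cKO thus show no detected fall of the whole-gene Kat8 count, though the interval does not leave out a modest one. Because the exons of Mof that Cre removes are not given here, a whole-gene count cannot check the deletion. By staining, the paper reports that H4K16ac was largely lost from MOF cKO epidermis at E16.5. Fewer deleted cells and less RNA per cell cannot be told apart in such bulk libraries. At P0.5, Kat8 was at 15.2 and 19.7 CPM in control and at 15.1 and 13.3 CPM in Kansl1 cKO (log2 fold change -0.30, 95% interval -0.81 to 0.20, adjusted p = 0.530, edgeR). The control libraries differed from each other by more than the nearer one differed from Kansl1 cKO.

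**Figure D1:**
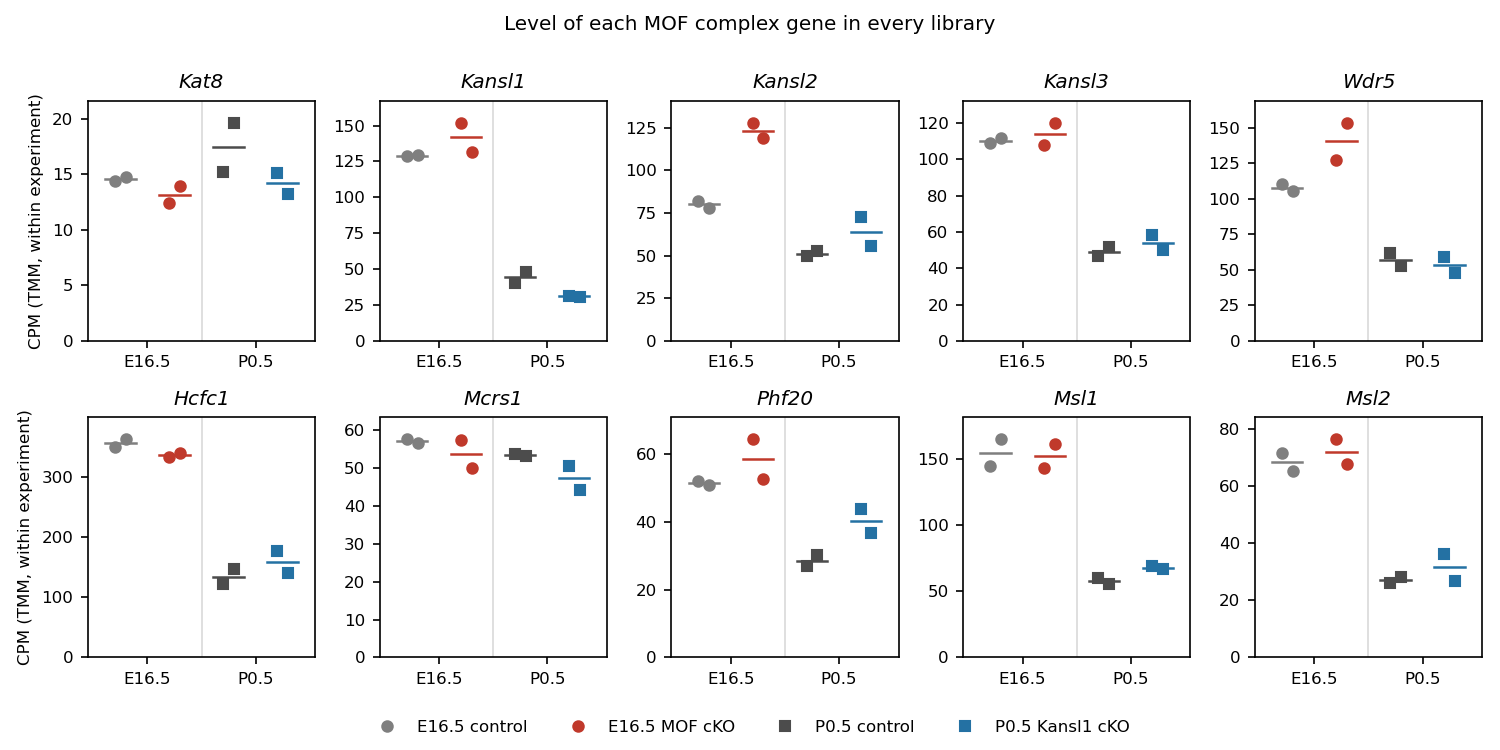
CPM after TMM scaling within each experiment (vertical axes, from 0) of the 10 genes in the 8 libraries, with 1 panel per gene, points for libraries and bars for group means. Kansl2 is the gene whose MOF cKO libraries (128 and 119 CPM) stand farthest above control (81.8 and 78.2 CPM), and Kansl1 is lower in both Kansl1 cKO libraries (31.4 and 30.6 CPM) than in control (40.7 and 48.2 CPM).

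Kansl1, the scaffold through which MOF meets WDR5 in NSL, is on the minus strand of chromosome 11 from 104333229 to 104468861. In P0.5 control it was at 40.7 and 48.2 CPM and in Kansl1 cKO at 31.4 and 30.6 CPM. The Kansl1 cKO libraries were close to each other and below both controls, and the mean went from 44.4 ± 5.30 to 31.0 ± 0.60 CPM (SD, n = 2). On the log2 scale Kansl1 differed by -0.52 (95% interval -0.92 to -0.12, unadjusted p = 0.0175) and did not pass the adjusted threshold (adjusted p = 0.242, edgeR). It stayed between -0.63 and -0.42 under every alternative run. In the E16.5 libraries Kansl1 was at 129 and 129 CPM in control and at 152 and 131 CPM in MOF cKO (log2 fold change 0.13, adjusted p = 0.376, edgeR).

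Kansl2, an NSL core subunit, was the member that rose in MOF cKO. It is on the minus strand of chromosome 15 from 98517658 to 98534264. Kansl2 was at 81.8 and 78.2 CPM in E16.5 control and at 128 and 119 CPM in MOF cKO, so the groups stood well apart. The log2 fold change was 0.62 (standard error 0.108, 95% interval 0.37 to 0.88, adjusted p = 0.00429, edgeR), which is 1.54-fold against a threshold of 1.5-fold. The call was lost with library size alone as the scaling (log2 fold change 0.32, adjusted p = 0.0419), with upper-quartile factors (0.56, under the fold threshold) and in one fit over all libraries (0.63, adjusted p = 0.0119). It was also lost without E16.5 control replicate 2 (0.59, adjusted p = 0.0172) and without MOF cKO replicate 1 (0.57, adjusted p = 0.0138), while the direction was the same in all of these. In Kansl1 cKO, Kansl2 was at 72.7 and 55.6 CPM against 49.8 and 52.6 CPM in control (log2 fold change 0.32, 95% interval -0.11 to 0.76, adjusted p = 0.437, edgeR).

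A small nucleolar RNA gene inside Kansl2 gave far more reads in MOF cKO. Snora2b lies on the same strand at chr15:98526346-98526482 and overlaps 92 exon bases of Kansl2, 2.43% of them. The E16.5 control libraries gave it 2 and 1 counts, the MOF cKO libraries 40 and 56. The ratio scaled to library size with TMM factors was 42.9, with a 95% counting interval of 14.2 to 212, and edgeR called it as higher (adjusted p = 0.00332). Snora34, in an intron of Kansl2, was counted 30 and 16 times in control against 35 and 48 times in MOF cKO (log2 fold change 1.28, adjusted p = 0.144, edgeR). Against the 2167 to 2807 counts of Kansl2 these reads are few, and the way reads in the overlap were assigned is not given in the sources used here.

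Kansl3, a further core subunit of NSL, did not separate the groups. It was at 109 and 112 CPM in E16.5 control and at 108 and 120.1 CPM in MOF cKO, with a log2 fold change of 0.05 (95% interval -0.21 to 0.30). At P0.5 the values were 46.6 and 51.5 CPM in control and 58.1 and 50.03 CPM in Kansl1 cKO. The libraries overlapped in both comparisons.

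Wdr5 is a WD40 repeat protein that NSL shares with the complexes that methylate histone H3 at lysine 4. It was at 110.1 and 105 CPM in E16.5 control and at 127 and 153 CPM in MOF cKO. Both MOF cKO libraries were above both controls, with a wide gap between them, and the log2 fold change of 0.38 (95% interval 0.09 to 0.67) missed the call (adjusted p = 0.0441, edgeR). At P0.5 it was at 61.9 and 52.6 CPM in control and at 58.9 and 47.8 CPM in Kansl1 cKO, with overlapping libraries and a log2 fold change of -0.10 (adjusted p = 0.835, edgeR).

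Hcfc1, a large transcriptional coregulator on the X chromosome, was the most abundant member by counts. It was at 350 and 363 CPM in E16.5 control and at 333 and 340 CPM in MOF cKO (log2 fold change -0.08, 95% interval -0.31 to 0.15). The control library with high Xist was the lower of its pair. In P0.5 control it was at 122 and 147 CPM and in Kansl1 cKO at 177 and 140 CPM (log2 fold change 0.24, 95% interval -0.22 to 0.69) with overlapping libraries.

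Mcrs1, a protein with a forkhead-associated domain, had even levels throughout. It was at 57.5 and 56.6 CPM in E16.5 control and at 57.3 and 49.8 CPM in MOF cKO. At P0.5 it was at 53.6 and 53.2 CPM in control and at 50.5 and 44.1 CPM in Kansl1 cKO, both below control by a small margin. The log2 fold changes were -0.09 and -0.17, with intervals that reached from -0.38 to 0.20 and from -0.55 to 0.20.

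Phf20, a reader of methylated lysine, was the member with the largest upward estimate in Kansl1 cKO. It was at 26.9 and 30.2 CPM in P0.5 control and at 43.7 and 36.6 CPM in Kansl1 cKO, so both knockout libraries were higher. The log2 fold change was 0.49 (95% interval 0.07 to 0.91, unadjusted p = 0.0279), and it did not pass after adjustment (adjusted p = 0.271, edgeR). In E16.5 control it was at 52.1 and 51.0 CPM and in MOF cKO at 64.3 and 52.7 CPM (log2 fold change 0.18, adjusted p = 0.318, edgeR).

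The MSL subunits showed no detected change in either knockout. Msl1, the MSL scaffold, was at 144 and 165 CPM in E16.5 control and at 143 and 161 CPM in MOF cKO, nearly the same pair of values, with a log2 fold change of -0.02 (95% interval -0.30 to 0.25). At P0.5 it was at 59.8 and 55.3 CPM in control and at 68.9 and 66.9 CPM in Kansl1 cKO (log2 fold change 0.24, 95% interval -0.12 to 0.60, adjusted p = 0.487, edgeR). Msl2, a RING finger ubiquitin ligase, was at 71.8 and 65.5 CPM in E16.5 control and at 76.5 and 68.0 CPM in MOF cKO. Its P0.5 values were 26.2 and 28.3 CPM in control and 36.4 and 26.8 CPM in Kansl1 cKO, so 1 knockout library lay within the control range and the other above it. The log2 fold changes of Msl2 were 0.07 and 0.21, with upper limits of 0.36 and 0.69.

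In all, 1 of the 10 members was called in MOF cKO, where 19.6% of the 13956 genes tested met both thresholds (adjusted p no higher than 0.01, more than 1.5-fold). At an unadjusted p under 0.05 there were 2 members, Kansl2 and Wdr5, with 48.9% of all genes. Genes were called higher and lower in numbers of 1395 and 1338, or 769 and 2743 with library size alone as the scaling. The members' median log2 fold change was 0.06 beside -0.02 for all genes, and 8 of 10 were within 0.2 of 0 against 22.1% of all genes. Library size alone moved the median of all genes to -0.32 and that of the members to -0.24, with 3 of 10 members within 0.2 of 0 against 19.7% of all genes, and under it Kansl1, Kansl3, Phf20 and Msl2 took negative values. The MOF cKO and control libraries did not overlap in 6 members, 4 higher and 2 lower, where 72.6% of all genes did not overlap (34.9% higher, 37.7% lower). The intervals of all 10 members lay between -0.56 and 0.88 on the log2 scale.

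In Kansl1 cKO, 0 of the 10 members were called by edgeR, where 0% of the 13031 genes tested were called, and DESeq2 called 90 genes and 0 members. At an unadjusted p under 0.05 there were 2 members, Kansl1 and Phf20, with 15.7% of all genes. The members' median log2 fold change was 0.18 beside 0.01 for all genes, and 3 of 10 were within 0.2 of 0 against 41.1% of all genes. The libraries did not overlap in 6 members, 3 higher and 3 lower, beside 48.7% of all genes (26% higher, 22.7% lower). The intervals of the 10 members reached from -0.92 to 0.91 on the log2 scale.

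**Figure D2:**
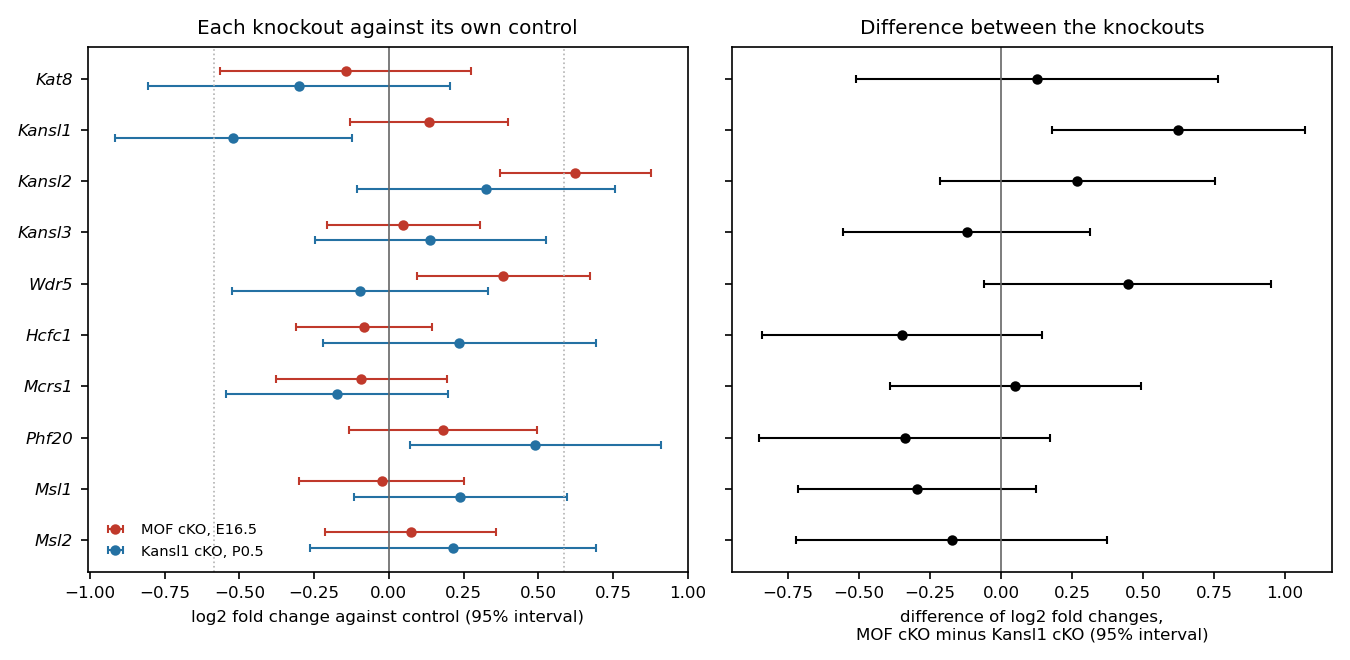
Left, log2 fold changes of the 10 genes in each knockout against its own control, with 95% intervals and dotted lines at the 1.5-fold threshold. Right, the MOF cKO effect minus the Kansl1 cKO effect with its 95% interval. Kansl2 in MOF cKO (0.62) is the 1 point beyond a dotted line, and on the right the interval of Kansl1 (0.18 to 1.07) is the 1 that leaves out 0.

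The effects of the knockouts were then compared in one fit over all 8 libraries. At an adjusted p of 0.05, 0 of the 10 members differed between the knockouts, where 13.8% of the 14565 genes tested did, and at an unadjusted p under 0.05 there was 1 member, Kansl1, with 31.2% of all genes. By the stricter thresholds of the single comparisons 0 of 10 differed, beside 2.92% of all genes (1.76% higher in MOF cKO, 1.17% lower). Those 426 genes became 1432 by DESeq2, 1651 with every gene of at least 1 count, 1 under the replicate block, and 81 to 423 when 1 library was left out, the lowest without P0.5 control replicate 1, while members called numbered 0 in each. The Kansl1 difference was 0.62 on the log2 scale (95% interval 0.18 to 1.07, adjusted p = 0.0646, edgeR). It was 0.72 with an adjusted p of 0.0268 by DESeq2, 0.72 with 0.0387 under edgeR with RLE factors, and 0.41 with 0.279 under edgeR with library size alone. The next largest was Wdr5, at 0.45 (95% interval -0.06 to 0.95, adjusted p = 0.210, edgeR). Kansl2, called in MOF cKO and not in Kansl1 cKO, differed by 0.27 between them (95% interval -0.22 to 0.75, adjusted p = 0.433, edgeR), so its effects were not shown to differ. The comparisons share no library, but stage, isolation of cells and sequencer differ along with the deleted gene and cannot be told apart from it.

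Levels were compared between genes only per length, as CPM per kilobase of exon with 1 scaling over all libraries. In E16.5 control Hcfc1 was highest, at 39.3 ± 1.23 (SD, n = 2), followed by Wdr5 at 27.6 ± 0.740 and Msl1 at 26.2 ± 2.57, which overlapped. Kansl2 at 19.5 ± 0.523, Kansl1 at 17.3 ± 0.142, Kansl3 at 15.1 ± 0.374 and Mcrs1 at 14.999 ± 0.104 came next, the last pair overlapping. Msl2 was at 11.3 ± 0.677, and Phf20 (4.72 and 4.80) and Kat8 (4.59 and 4.71) closed the order, side by side. Kat8, the subunit shared by both complexes, was the lowest by this length. In P0.5 control the order was flatter. Hcfc1 (17.3 ± 2.38), Wdr5 (17.05 ± 1.87) and Mcrs1 (16.3 ± 0.00419) overlapped at the top and Kansl1 (6.93 ± 0.862) overlapped both Kansl3 (7.80 ± 0.591) above it and Kat8 (6.47 ± 1.19) below it. Phf20 was lowest at 3.07 ± 0.264. Kat8 was between the 8th and 10th rank in every group by this length, and between the 6th and 10th with the longest transcript or the coding length in its place. The top rank also depended on the length. By coding length Wdr5 ranked 1st in both control groups, and Hcfc1 ranked 3rd in E16.5 control and 5th in P0.5 control. By the longest transcript Hcfc1 ranked 1st in E16.5 control, and in P0.5 control Mcrs1 ranked 1st and Hcfc1 3rd.

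**Figure D3:**
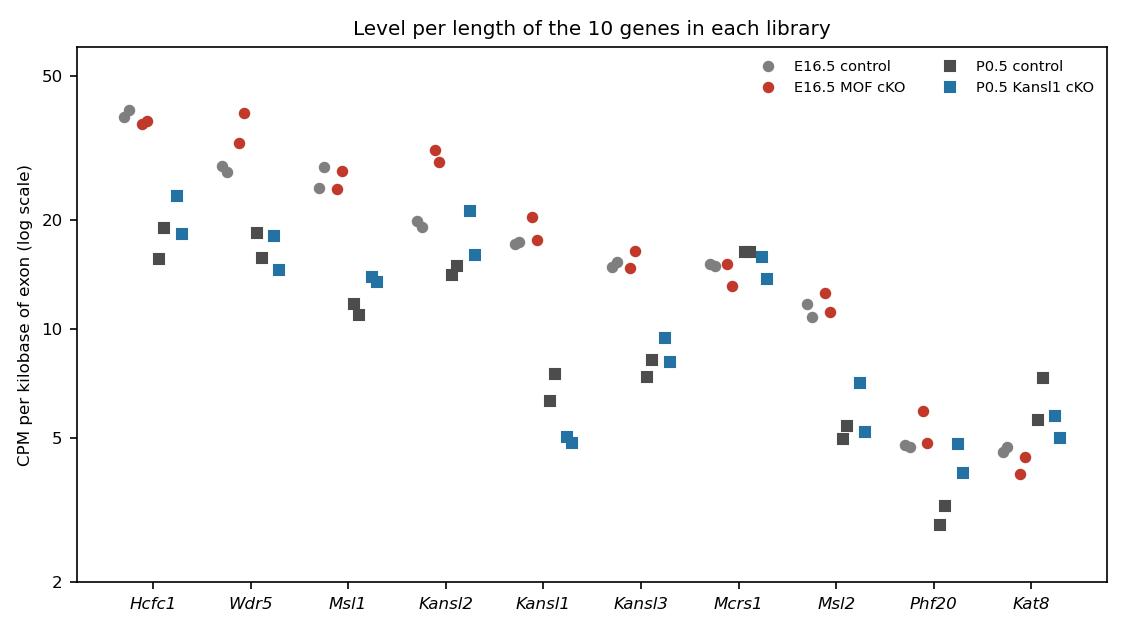
CPM per kilobase of exon (vertical log axis) of the 10 genes, ordered by their mean in E16.5 control, with 1 point per library. In E16.5 control the levels run from 4.59 for Kat8 to 40.2 for Hcfc1, and most genes are lower at P0.5, while Kat8 and Mcrs1 are not.

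Each member's share of the summed level of the 10 does not depend on the scaling between libraries. Kat8 made up 2.56% and 2.59% of the sum in E16.5 control and 2.01% and 2.21% in MOF cKO. At P0.5 its share was 5.45% and 6.73% in control and 4.62% and 4.86% in Kansl1 cKO, so it was lower in both knockouts than in their controls. Kansl2 went the other way, from 11.1% and 10.5% to 15.8% and 14.4% in MOF cKO and from 13.6% and 13.8% to 16.99% and 15.5% in Kansl1 cKO. Kansl1 took 6.12% and 6.94% in P0.5 control and 4.04% and 4.71% in Kansl1 cKO. These shares carry no test, since a rise in 1 member lowers the others.

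Between the control groups, most members were lower at P0.5 than at E16.5. Of the 10, 7 were called lower and 0 higher, where 20.6% of the 14565 genes were called lower and 19.6% higher. Related genes described below were called lower as well. Of 11 subunits of the H3K4 methyltransferase complexes, 8 were called lower and 0 higher, with a median of -0.73. Of 6 further NSL and MSL genes or relatives, 2 were lower and 0 higher, and of 5 deacetylases 2 were lower and 1 higher. The genes called in all were 2854 higher and 2997 lower, or 2144 and 4375 with library size alone. The median of all genes was -0.13 in this fit, -0.46 with library size alone and 0.0042 with RLE factors, and the members' median was -0.82. The control libraries of the stages did not overlap in any of the 10, with 2 higher and 8 lower, beside 80.5% of all genes. Kansl1 went from 118 and 120 CPM at E16.5 to 43.4 and 51.8 CPM at P0.5 in the scaling over all libraries, a log2 difference of -1.32 (95% interval -1.64 to -0.999, adjusted p = 7.33e-05, edgeR). Msl1 (-1.21), Hcfc1 (-1.19), Msl2 (-1.11) and Kansl3 (-0.95) were called as well, and these 5 were called under every alternative run. Wdr5 (-0.70, adjusted p = 0.00483) and Phf20 (-0.63, adjusted p = 0.00877) passed in this fit. Both lost the call with RLE factors (-0.56 and -0.50), by DESeq2, in the 4 control libraries alone and whenever 1 control library was left out, and Phf20 also with every gene of at least 1 count. Members called thus numbered 5 to 8, the highest with library size alone, where Kansl2 was called too (-0.76, adjusted p = 0.00542, edgeR). Kat8 was the member highest against this shift, at 13.3 and 13.6 CPM at E16.5 and 16.3 and 21.1 CPM at P0.5, a log2 difference of 0.48 (95% interval 0.03 to 0.93, adjusted p = 0.0646, edgeR). Mcrs1 differed by 0.12 (95% interval -0.19 to 0.44) and Kansl2 by -0.42 (adjusted p = 0.0388, edgeR). Stage, sorted cells against whole epidermis, and sequencer cannot be told apart in this comparison.

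Other genes of the complexes and of H4K16 and H3K4 modification were read from lists. Of 6 further NSL and MSL genes or close relatives of members, 0 were called in MOF cKO (19.6% of all genes) and 0 in Kansl1 cKO (0% of all genes). At an unadjusted p under 0.05 there were 3 in each, beside 48.9% of all genes in MOF cKO and 15.7% in Kansl1 cKO. Msl3l2, a relative of the MSL subunit Msl3, had 103 and 76 counts in E16.5 control and 0 and 9 in MOF cKO (log2 fold change -3.90, standard error 1.01, adjusted p = 0.0199, edgeR). In Kansl1 cKO, Msl3l2 was lower too, at 0.63 and 0.24 CPM against 1.15 and 1.75 CPM in P0.5 control. Its log2 fold change there was -1.66 (unadjusted p = 0.0289, adjusted p = 0.274, edgeR). The effects of the knockouts on it were not shown to differ (difference -2.24, adjusted p = 0.277, edgeR). Wdr5b, a close relative of Wdr5, was at 2.32 and 3.50 CPM in control and at 0.301 and 0.635 CPM in MOF cKO (log2 fold change -2.61, standard error 0.637, adjusted p = 0.0162, edgeR). Both are low genes whose libraries stood well apart in MOF cKO but which missed the adjusted p of 0.01, and DESeq2 called both there. Kansl1l, a relative of Kansl1 named here after its values were seen, was at 17.2 and 25.0 CPM in P0.5 control and at 46.4 and 40.0 CPM in Kansl1 cKO. Both knockout libraries were far above control, with a log2 fold change of 1.02 (standard error 0.222, unadjusted p = 0.00262) that did not pass after adjustment (adjusted p = 0.197, edgeR). In MOF cKO it was at 76.7 and 56.4 CPM against 51.3 and 49.6 CPM (log2 fold change 0.40, adjusted p = 0.0874, edgeR).

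Of 11 subunits of the H3K4 methyltransferase complexes, 0 were called in MOF cKO (19.6% of all genes) and 0 in Kansl1 cKO (0%). The medians were 0.04 and 0.05. At an unadjusted p under 0.05 (edgeR) there were 4 in MOF cKO and 0 in Kansl1 cKO, beside 48.9% and 15.7% of all genes. These counts leave out the symbol Mll2, an older name of both Kmt2b and Kmt2d, which are H3K4 methyltransferases. Kmt2b was counted here under another older symbol, Wbp7, so Mll2 would be Kmt2d. Mll2, named here after its values were seen, was at 248.9 and 341 CPM in E16.5 control and at 514 and 510.3 CPM in MOF cKO. It was called higher (log2 fold change 0.80, standard error 0.153, adjusted p = 0.00664, edgeR), and would make the count called in MOF cKO 1. The Mll2 call was lost with library size alone (0.49, adjusted p = 0.0337), with upper-quartile factors (0.73, adjusted p = 0.0103), without E16.5 control replicate 1 (0.58, adjusted p = 0.0101) and without either MOF cKO library (adjusted p = 0.0148 and 0.0117, edgeR). The farthest in MOF cKO were the methyltransferases Setd1a (0.47, adjusted p = 0.0221) and Kmt2b (0.45, adjusted p = 0.0230, edgeR). Of 5 deacetylases that can act on H4K16, 1 was called in MOF cKO, as lower, beside 19.6% of all genes called. In that knockout 4 had an unadjusted p under 0.05 (edgeR), beside 48.9% of all genes. The median of the 5 was -0.38, with 3 below and 2 above 0. Sirt2, which deacetylates H4K16, was at 38.2 and 47.4 CPM in E16.5 control and at 23.0 and 24.0 CPM in MOF cKO (log2 fold change -0.87, standard error 0.153, adjusted p = 0.00470, edgeR). The Sirt2 call was lost without E16.5 control replicate 2 (-0.70, adjusted p = 0.0145) and without MOF cKO replicate 1 (-0.84, adjusted p = 0.0122, edgeR). Hdac1 was at 199.6 and 173 CPM in control and at 106 and 133 CPM in MOF cKO (-0.64, adjusted p = 0.0104), and Hdac3 differed by -0.38 (adjusted p = 0.0274, edgeR). The other two, Hdac2 (0.34, adjusted p = 0.0358) and Sirt1 (0.25, adjusted p = 0.118, edgeR), had positive values. In Kansl1 cKO 0 of the 5 were called, beside 0% of all genes, and their median was 0.15, with 4 above and 1 below 0. The 1 below was Sirt2, also the 1 with an unadjusted p under 0.05 (edgeR), beside 15.7% of all genes. Sirt2 was at 36.0 and 48.5 CPM in Kansl1 cKO and at 62.2 and 57.6 CPM in P0.5 control (log2 fold change -0.51, adjusted p = 0.284, edgeR). Its effects in the knockouts were not shown to differ (difference -0.39, adjusted p = 0.327, edgeR).

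**Figure D4:**
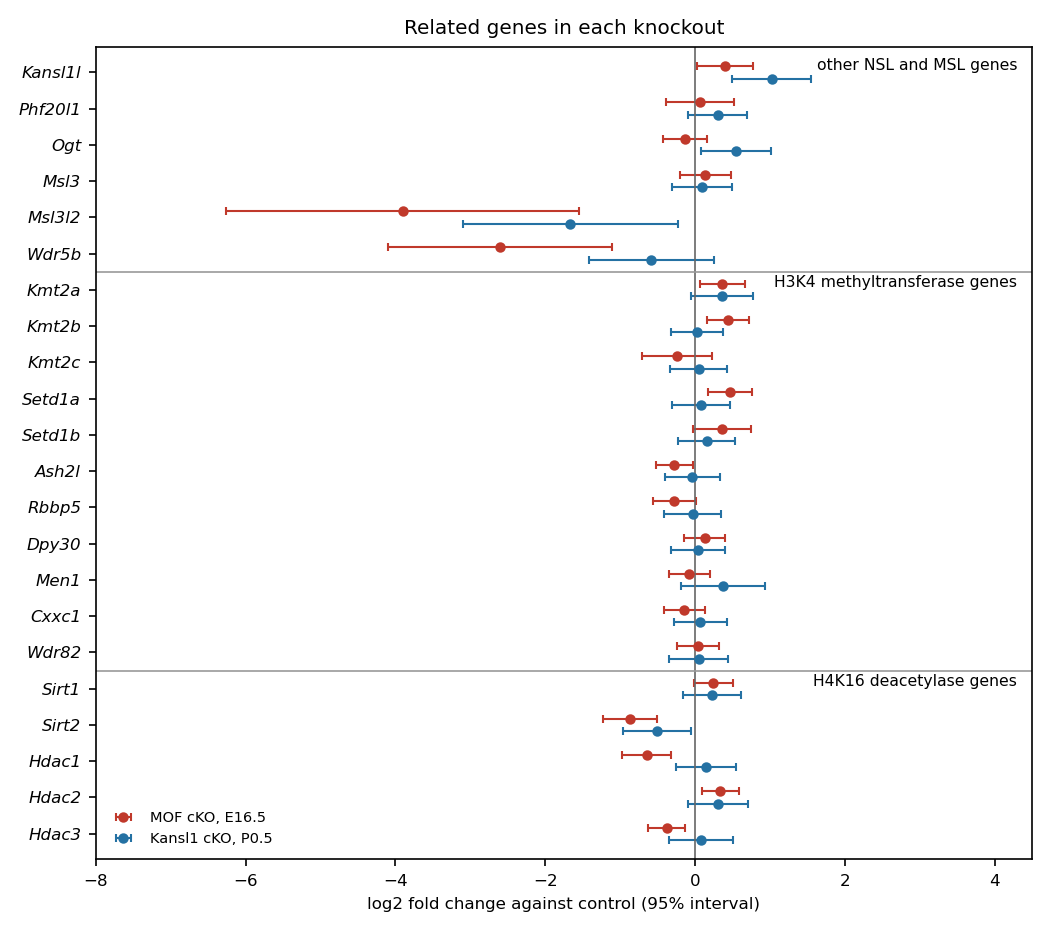
Log2 fold changes with 95% intervals of the related genes in MOF cKO and Kansl1 cKO, each against its own control. In MOF cKO, Msl3l2 (-3.90) and Wdr5b (-2.61) lie farthest below 0. In Kansl1 cKO, Msl3l2 (-1.66) lies farthest below 0 and Kansl1l (1.02) farthest above it.

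Some exon bases of members lie under other genes, and the strand setting of the counting is not given in the sources used here. Prss8, on the opposite strand, overlaps 4.22% of the Kat8 exon bases. It was at 6.52 and 7.04 CPM in E16.5 control and at 9.59 and 10.04 CPM in MOF cKO (log2 fold change 0.53, adjusted p = 0.109, edgeR), and between 49.6 and 129 CPM in the P0.5 libraries. The part of Prss8 in the Kat8 counts was not tested. Kcnh3, a potassium channel gene, shares 1 base with Mcrs1 and had 281 and 283 counts in E16.5 control and 76 and 38 in MOF cKO (-1.85, adjusted p = 0.0124, edgeR). Msl1 shares 15 exon bases with Casc3, whose log2 fold change in MOF cKO was -0.05.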

How the data were processed

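Gene counts of 8 libraries were used as the authors deposited them: whole-number counts per gene from HTSeq-count on reads aligned to mm10, not normalized, with HISAT2 as the aligner in the study's methods and TopHat2 in the processing notes. Entries naming no gene, 21.1% to 26.0% of the counts, were left out. Each knockout was compared with its own control in edgeR 4.0.16 (R 4.3.3) with filterByExpr, TMM factors and the quasi-likelihood test. A gene was called at a Benjamini-Hochberg adjusted p of at most 0.01 and a fold over 1.5. A fit over all 8 libraries gave the difference between the knockout effects (adjusted p of at most 0.05) and the contrast of controls. Scripts were tested on simulated data. CPM in the report use TMM factors within an experiment unless said otherwise, and 1 count was worth 0.0326 to 0.115 CPM. GENCODE M21 gave coordinates and lengths (92.9% of symbols matched), and RefSeq GRCm38.p6 the promoters.

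Members and lists were chosen with earlier results of these data known. Beside the members, the text names called list genes and the 2 uncalled genes of each list with the largest change in either knockout. Kansl1l, Mll2, Hdac2, Sirt1 and single markers were named after their values were seen. The symbol Mll2, which by name can stand for either of a pair of genes, was left out of the list, although Kmt2b had its own symbol, Wbp7. Alternatives were DESeq2 1.42.0, other scalings and filters, a replicate block and leaving out each library. A crossed block was chosen after seeing the data.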

Additional observations from a re-analysis of the deposited data

Results flagged for a closer look

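Hdac1, a class I deacetylase, differed between the knockouts by -0.82 on the log2 scale (MOF cKO effect minus Kansl1 cKO effect, adjusted p = 0.0448, edgeR over 8 libraries). Kcnh3, which shares 1 base with Mcrs1, differed by -2.69 in the same test (adjusted p = 0.0419), from counts of 7 and 10 in P0.5 control and 19 and 21 in Kansl1 cKO. Both differences were tested directly in that fit, in which 13.8% of all genes passed an adjusted p of 0.05.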

How the results depend on the processing

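Members called in MOF cKO numbered 0 with library size alone, upper-quartile factors or one fit over all libraries, 0 to 1 when 1 library was left out, and 1 under the other alternatives, and members called in Kansl1 cKO numbered 0 throughout. Genes called in MOF cKO numbered 4166 under the replicate block and 4239 at an adjusted p of 0.05. Genes called in Kansl1 cKO numbered 90 by DESeq2, 1 with library size alone, 190 with every gene of at least 1 count, 1 under a crossed replicate block chosen after seeing the data, and 5 to 273 when 1 library was left out. Replicate numbers are only a number in the labels: same-numbered deviations correlated at 0.270 at E16.5 and -0.296 at P0.5, and under the replicate block members called were 1 and 0. With the longest transcript or the coding length, members keeping their rank were 4 and 4 of 10 in E16.5 control, 5 and 4 in MOF cKO, 5 and 2 in P0.5 control and 3 and 4 in Kansl1 cKO. Members called in the contrast of controls numbered 5 when 1 library was left out.

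Signs that turned were all of uncalled values near 0. With library size alone they were Kansl1 -0.17, Kansl3 -0.26, Phf20 -0.13 and Msl2 -0.23 in MOF cKO, Kat8 -0.092 and Mcrs1 -0.18 in the difference, and Mcrs1 -0.22 between controls. RLE factors gave Msl1 0.0010, upper-quartile factors Kansl3 -0.017, and every gene of at least 1 count Kansl3 0.0019 in the difference. Leaving out 1 library gave Kansl3 -0.031 to 0.12, Mcrs1 -0.20 to 0.0048, Msl1 -0.12 to 0.075 and Msl2 -0.020 to 0.16 in MOF cKO, Kansl3 -0.0092 to 0.24, Wdr5 -0.29 to 0.047 and Msl2 -0.063 to 0.42 in Kansl1 cKO, and Kat8 -0.094 to 0.29, Kansl3 -0.24 to 0.040, Mcrs1 -0.057 to 0.28 and Msl2 -0.39 to 0.069 in the difference. The cause was not tested. With 2 libraries a group, intervals of members were up to 0.841 wide in MOF cKO and 1.01 in Kansl1 cKO on the log2 scale.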
